A study of Mus musculus with 40 samples.

Results

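The colon of C57BL/6 mice was compared between animals given VSL#3, a mixture of live probiotic bacteria, and animals given PBS, the vehicle. The members were the 5 arrays titled as VSL#3 C57BL/6 colon and the 5 titled as PBS C57BL/6 colon, 10 of the 40 arrays of the study, each from a different mouse. The mice were specific-pathogen-free C57BL/6 females of 9 weeks, gavaged with 200 µl of PBS with or without the bacteria 3 times a week for 4 weeks. The remaining arrays came from the small intestine of the same mice and from both tissues of BALB/c mice treated alike, also 5 arrays per group. RNA was taken from whole intestinal tissue, so the arrays hold epithelium, muscle, lymphoid tissue and whatever was attached to them. In such bulk samples a change in the number of cells of a type and a change in RNA per cell cannot be told apart. The source names give each C57BL/6 colon group a number of its own and split each group by a letter, A for mice 1 to 3 and B for mice 4 and 5. The labels do not say what the letter stands for. Source number and group cannot be told apart, nor can letter and mouse number.

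The colon tissue keeps a single layer of epithelium between gut bacteria and the immune system. Below it lie macrophages, T cells, IgA-secreting plasma cells and, at intervals, lymphoid follicles in which B cells gather. MHC class II molecules carry peptides from ingested material to helper T cells. Their chains, the invariant chain Cd74 that guards the empty groove, and the DM and DO proteins that load and edit the peptide are switched on together by the coactivator Ciita. CCN proteins, the family of Ccn1 and Ccn2, are secreted into the matrix around cells and are known as targets of YAP-TEAD, SRF and TGF-beta signalling.

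Levels below are log2 intensities after background correction and quantile normalization, and differences are VSL#3 minus PBS on that log2 scale, each with the SE (standard error) that limma estimated. The arrays detected between 12497 and 13257 of 25697 probes, and pairs of arrays within a group correlated with r between 0.973 and 0.988, over much the same range as pairs from different groups (0.973 to 0.989). The number of arrays limits the precision. The strain marker H2-Ea and the markers of tissue matched the labels, and those of sex did so with 1 exception. H2-Ea, a class II chain that C57BL/6 mice lack, lay between 4.80 and 6.92 here and between 11.78 and 13.37 in BALB/c colon. Its probe was detected on 4 of the 10 arrays here. The probes of Nnt, another strain label gene, reached at most 5.05 here and 4.89 in BALB/c colon, so Nnt did not separate the strains. The water channel Aqp8 of colonocytes lay between 11.07 and 11.47, against 4.67 to 5.92 in small intestine, and sucrase-isomaltase (Sis) of the small intestine lay between 4.66 and 6.90, against 13.03 to 13.84 in small intestine. Xist was detected on all 10 arrays, and Kdm5d and Eif2s3y of the Y chromosome on none. The probe of another Y-linked gene, Uty, was detected on 8 of the 10, at 4.75 to 6.30, and the source of that signal was not tested.

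The promoters of class II genes and of Ccn1, which recur below, are shown because class II genes are read through shared boxes near the start site. Of the 12 tested class II chain and peptide-loading genes, 9 had a promoter in the RefSeq table (build GRCm38.p6, 250 bases before to 50 after the start), as had Ccn1 among the 3 tested CCN genes. Capitals mark the Y box, searched as TGATTGG, and the X box core, searched as AACNNATG, on both strands. The promoters are those of H2-Aa, the alpha chain of I-A (chr17:34287774-34288073, minus strand), H2-Eb1, the beta chain of I-E (chr17:34305617-34305916, plus strand), H2-DMb1, a chain of the peptide loader DM (chr17:34152941-34153240, plus strand), and H2-Ob, a chain of the DM regulator DO (chr17:34238655-34238954, plus strand).
H2-Aa: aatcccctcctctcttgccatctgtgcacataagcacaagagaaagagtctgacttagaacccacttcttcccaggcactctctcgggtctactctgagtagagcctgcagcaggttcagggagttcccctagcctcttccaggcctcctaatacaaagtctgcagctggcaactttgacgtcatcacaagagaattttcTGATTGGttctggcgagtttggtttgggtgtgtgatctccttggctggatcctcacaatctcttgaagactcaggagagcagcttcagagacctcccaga
H2-Eb1: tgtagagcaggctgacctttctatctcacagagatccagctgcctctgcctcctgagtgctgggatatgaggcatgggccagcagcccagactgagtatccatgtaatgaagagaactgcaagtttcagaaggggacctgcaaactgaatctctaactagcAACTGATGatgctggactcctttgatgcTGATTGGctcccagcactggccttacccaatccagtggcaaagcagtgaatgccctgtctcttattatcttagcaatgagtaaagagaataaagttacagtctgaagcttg
H2-DMb1: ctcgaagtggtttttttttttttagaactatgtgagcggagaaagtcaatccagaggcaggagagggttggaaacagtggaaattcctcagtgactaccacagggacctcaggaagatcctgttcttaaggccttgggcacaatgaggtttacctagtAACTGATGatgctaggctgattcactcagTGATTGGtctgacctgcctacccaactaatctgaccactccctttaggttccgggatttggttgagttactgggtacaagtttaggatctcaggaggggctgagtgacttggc
H2-Ob: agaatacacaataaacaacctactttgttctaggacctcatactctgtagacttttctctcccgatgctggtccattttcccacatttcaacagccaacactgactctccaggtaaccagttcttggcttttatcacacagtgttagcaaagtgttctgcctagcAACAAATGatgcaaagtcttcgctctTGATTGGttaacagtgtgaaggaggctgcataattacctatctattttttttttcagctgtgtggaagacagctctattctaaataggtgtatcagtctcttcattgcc
The Y box began 50 bases before the start in H2-Aa, 61 in H2-Eb1, 63 in H2-DMb1 and 59 in H2-Ob. The X box core began 89, 92 and 85 bases before it in H2-Eb1, H2-DMb1 and H2-Ob, and these letters were not in the H2-Aa window. Of the 9 promoters, 6 held the Y box, 5 the X box core and 4 both, and of all 32851 promoters searched, 7.82% held the Y box, 8.86% the X box core and 0.785% both. A match is a description of the letters only.

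No gene passed the test between VSL#3 and PBS. Of 9833 genes tested with limma over the 20 colon arrays, 0 (0%) had a Benjamini-Hochberg adjusted p under 0.05, and the lowest adjusted p was 0.281. An unadjusted p under 0.05 was reached by 633 genes (6.44%), 340 of them higher with VSL#3 (3.46%) and 293 lower (2.98%). The groups did not overlap for 85 genes (0.864%), 44 higher (0.447%) and 41 lower (0.417%) with VSL#3. In groups this small, some genes separate fully by chance alone. How many would do so was not tested, so separation here and below only describes these mice and is no evidence of an effect. Over all genes the median difference was -0.01, and 48.7% lay above 0 and 51.3% below.

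The gene with the lowest p was Ccn2, a secreted matrix protein also known as connective tissue growth factor. It stood at 10.73, 10.98, 10.63, 10.81 and 11.37 in VSL#3 mice 1 to 5 and at 9.92, 9.93, 9.78, 9.98 and 10.44 in PBS mice 1 to 5. Every VSL#3 mouse lay above every PBS mouse, and mouse 5 was the highest of its group in both. The difference was 0.90 (SE 0.17, 1.86-fold), with an adjusted p of 0.281 in limma. It was 0.91 within letter A and 0.88 within letter B.

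Its relative Ccn1, a matrix protein induced early by growth factors, stood at 6.85, 6.12, 5.97, 6.22 and 7.19 with VSL#3 and at 4.48, 5.03, 5.68, 5.00 and 6.36 with PBS. PBS mouse 5 reached into the VSL#3 range, and the probe was detected on 5 VSL#3 arrays but on 2 PBS arrays. The difference was 1.16 (SE 0.29, adjusted p 0.583 in limma), and 2 further Ccn1 probes gave 0.19 and 0.65. It was 0.67 as the mean of the probes, 0.71 with a larger offset and 2.36 without further background correction. Ccn4, the third CCN gene tested, differed by 0.20 (SE 0.18). The Ccn1 promoter (GRCm38.p6, chr3:145649936-145650235, minus strand) is shown with the TEAD motif in capitals, searched as CATTCC on both strands.
Ccn1: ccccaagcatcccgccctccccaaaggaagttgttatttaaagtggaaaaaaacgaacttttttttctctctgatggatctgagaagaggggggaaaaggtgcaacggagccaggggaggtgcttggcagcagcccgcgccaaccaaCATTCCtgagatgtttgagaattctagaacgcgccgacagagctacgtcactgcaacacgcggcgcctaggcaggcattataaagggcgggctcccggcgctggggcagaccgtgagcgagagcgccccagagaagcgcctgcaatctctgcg
The motif was found 103 bases before the start, and 14.7% of all promoters in the table hold it.

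Wider lists were set beside Ccn1 and Ccn2. The list of YAP-TEAD and SRF targets holds both, that of immediate early genes holds Ccn1, and the TGF-beta list holds neither. The activity of these pathways was not tested. Of 17 tested YAP-TEAD and SRF target genes, 12 lay above 0 with a median of 0.07, and 2 of the members with the lowest p, Edn1 (-0.68, SE 0.24), the vasoconstrictor peptide endothelin, and Crim1 (-0.49, SE 0.16), lay below 0. Of 20 genes of TGF-beta ligands, receptors and targets, 13 lay above 0 with a median of 0.06, and the ligand Tgfb1 itself differed by 0.32 (SE 0.19). Immediate early genes, transcription factors and phosphatases switched on within minutes of a stimulus, had 14 of 21 members above 0 and a median of 0.12. Among them Fosb differed by 0.61 (SE 0.26), Dusp1 by 0.47 (SE 0.22), Egr1 by 0.41 (SE 0.21) and Btg2, which restrains cell division, by -0.80 (SE 0.27). No member of these lists passed over all genes.

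**Figure D1:**
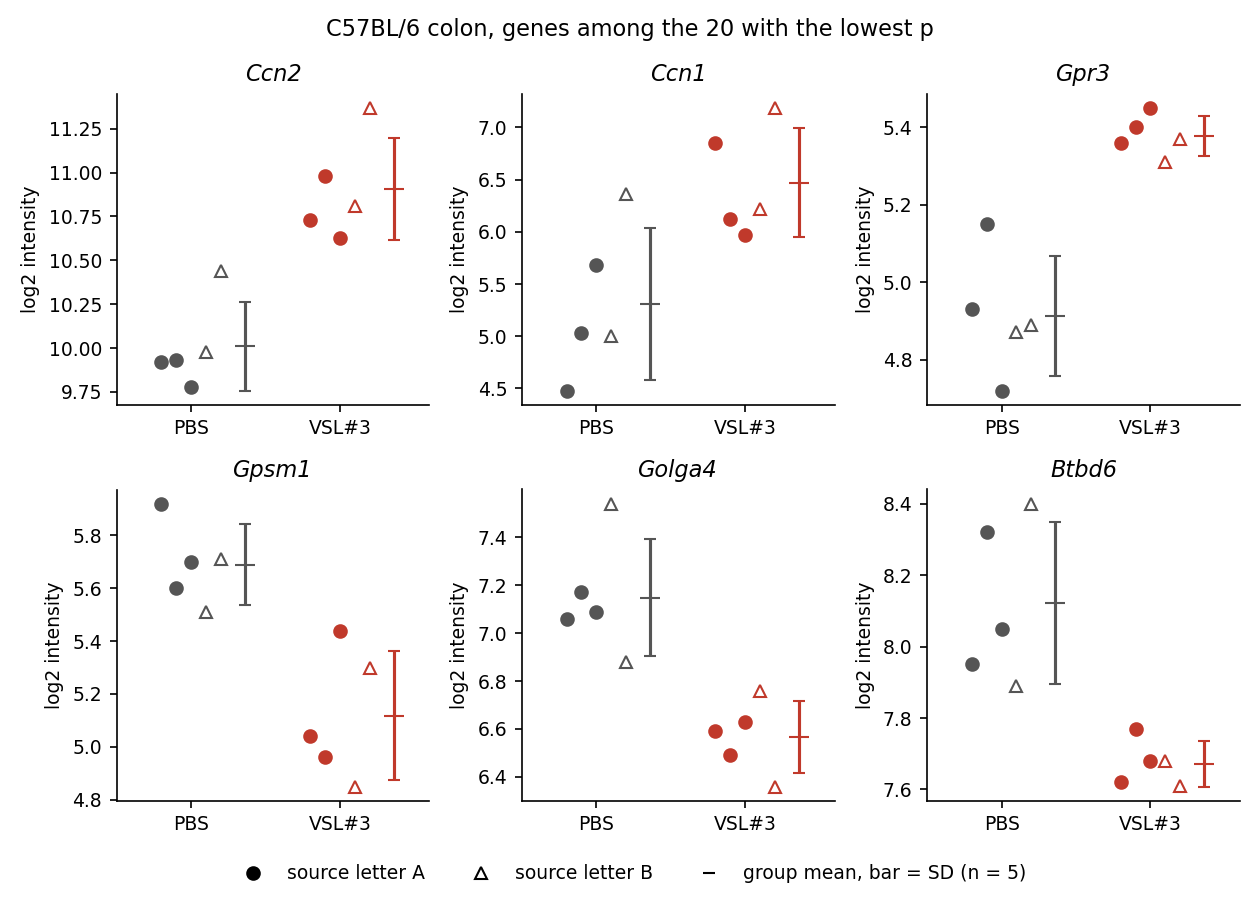
Log2 intensity (vertical axes, each panel on its own range) of 6 of the 20 genes with the lowest p in the 5 PBS and 5 VSL#3 C57BL/6 colon arrays. Filled circles are letter A mice, open triangles letter B mice, and bars show the group mean and SD (n = 5). VSL#3 mice lie wholly above PBS mice for Ccn2 and Gpr3 and wholly below for Gpsm1, Golga4 and Btbd6, and for Ccn1 1 PBS mouse overlaps.

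Next by p stood Gpsm1, a regulator of heterotrimeric G proteins. It lay at 5.04, 4.96, 5.44, 4.85 and 5.30 with VSL#3 and at 5.92, 5.60, 5.70, 5.51 and 5.71 with PBS. The groups did not overlap, and the probe was detected on 2 VSL#3 arrays and on all 5 PBS arrays. The difference was -0.57 (SE 0.11, adjusted p 0.281 in limma), -0.59 within letter A and -0.53 within letter B. Golga4, a golgin of the trans-Golgi network, lay at 6.59, 6.49, 6.63, 6.76 and 6.36 against 7.06, 7.17, 7.09, 7.54 and 6.88, again without overlap (-0.58, SE 0.13, adjusted p 0.583). Gpr3, a constitutively active orphan receptor that raises cyclic AMP, lay at 5.36, 5.40, 5.45, 5.31 and 5.37 against 4.93, 5.15, 4.72, 4.87 and 4.89. Here too the groups did not overlap, and the probe was detected on 1 of 5 PBS arrays (0.46, SE 0.11, adjusted p 0.583). Its size ran from 0.23 with a larger offset to 1.26 without further background correction.

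Other genes among the 20 with the lowest p and with higher levels in VSL#3 mice were Gramd4 (0.54, SE 0.12), Bmpr1a (0.45, SE 0.11), a receptor for bone morphogenetic proteins, Txnrd1 (0.49, SE 0.13), which reduces thioredoxin, Marcksl1 (0.38, SE 0.10), an actin-binding protein, and Acap1 (0.67, SE 0.18), an Arf GTPase-activating protein. The size for Marcksl1 ran from 0.06 to 0.46 over the alternative ways of processing. Arhgap15 and 6820408C15Rik were not well above background on any PBS array, so that their levels were at least 1.06-fold and at least 1.21-fold higher with VSL#3, the background bound being the lowest signal detected on an array. On the lower side stood Fam228b (-0.52, SE 0.12), Btbd6 (-0.45, SE 0.11), Epc1 (-0.42, SE 0.10), a component of a histone acetyltransferase complex, Abcb6 (-0.64, SE 0.16), a porphyrin transporter, Vsig8 (-0.62, SE 0.15), the histone gene H4c11 (-0.50, SE 0.13), Txnl4b (-0.50, SE 0.13) and Rep15 (-0.44, SE 0.12), a Rab15 effector. Their adjusted p-values in limma ran from 0.583 to 0.661. None of these 20 genes except Acap1 showed a difference between letters A and B at an adjusted p below 0.5, and that of Acap1 was 0.304.

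Among the 44 genes whose VSL#3 mice all lay above the PBS mice, the 10 with the greatest differences were H2-Aa (0.93), Ccn2, Usp2 (0.61), a deubiquitinase with a daily rhythm, Stap1 (0.60), Slc35f6 (0.57), 6820408C15Rik, Dnajb4 (0.53), an Hsp40 co-chaperone, Cdc42se2 (0.50), Arhgap15 and Steap1 (0.49), a metalloreductase family member. Among the 41 that lay wholly below, they were Abcb6, Golga4, Gpsm1, Fam204a (-0.53), Kdm8 (-0.52), Il15ra (-0.52), the receptor chain that presents interleukin 15, Fam228b, Ctsf (-0.51), a lysosomal protease, H4c11 and Ankrd35. A second Il15ra probe differed by 0.11, and Ankrd35 was not well above background on any VSL#3 array.

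Many genes of antigen presentation and of B cells were higher in VSL#3 mice 1 to 3 than in VSL#3 mice 4 and 5. Against PBS mice of the same letter, 14 of 15 B cell surface genes, 4 of 5 class II chains and 7 of 7 peptide-loading genes lay above 0 in letter A, and 4, 2 and 4 of them in letter B. H2-Aa lay at 12.37, 12.05, 11.68, 10.79 and 10.85 in VSL#3 mice 1 to 5 and at 10.53, 10.42, 10.71, 10.68 and 10.75 in PBS mice. Mice 4 and 5 exceeded the highest PBS mouse only narrowly, whereas mice 1 to 3 exceeded it clearly. Over 5 mice each the difference was 0.93 (SE 0.38, adjusted p 0.712 in limma). Cd74, the invariant chain, lay at 12.96, 12.21, 12.24, 10.90 and 11.11 against 11.02, 11.12, 10.88, 11.28 and 11.16, so that mice 4 and 5 lay within the PBS range. H2-Ab1, the beta chain of I-A, lay at 11.87, 11.05, 10.92, 10.11 and 9.74 against 9.89, 9.98, 9.89, 10.03 and 9.95. Mice 1 to 3 were again the highest, while mouse 4 lay just above the PBS range and mouse 5 just below it.

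Of the 5 tested class II chains, 4 lay above 0, and the median was 0.79, against -0.01 for all genes. The exception was H2-Ea, which C57BL/6 mice do not make. Without VSL#3 mouse 1 the median of the chains was 0.51. All 7 tested peptide-loading genes lay above 0, with a median of 0.52, among them H2-DMa (0.84, SE 0.40), H2-DMb1 (0.86, SE 0.45), H2-DMb2 (0.52, SE 0.25) and H2-Ob (0.84, SE 0.27). Ctss, the protease cathepsin S that trims the invariant chain, did not follow the letter: it lay at 8.85, 10.67, 9.88, 10.04 and 10.12 against 9.58, 9.52, 9.95, 8.76 and 9.35. VSL#3 mouse 1 was near the lowest PBS mouse, mice 2, 4 and 5 were above all PBS mice, and the difference was 0.12 in letter A and 1.02 in letter B. Ciita, their coactivator, differed by 0.77 (SE 0.35), lying at 7.0, 6.25, 6.07, 5.46 and 5.63 against 4.93, 5.11, 5.07, 5.83 and 5.61. The other class II transcription factors did not share this: the 1 of 5 above 0 on that list was Ciita itself. Rfxap, a subunit of the complex that binds the X box, differed by -0.21 (SE 0.10). None passed over all genes.

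Of 15 tested genes of the B cell receptor and B cell surface, 13 lay above 0, with a median of 0.59 and no call. That median was 0.32 without VSL#3 mouse 2 and 0.38 without VSL#3 mouse 3. Cd79b, a signalling chain of the B cell receptor, lay at 7.56, 8.85, 7.93, 6.22 and 6.63 against 6.33, 6.86, 6.78, 6.85 and 6.39. Mice 1 to 3 were above all PBS mice, with mouse 2 the highest, and mouse 4 was below them. Cd79a (0.77, SE 0.32), its partner chain, Tnfrsf13c (0.86, SE 0.33), the receptor for the survival factor BAFF, Fcrla (0.84, SE 0.31), Cxcr5 (0.76, SE 0.30), which steers B cells to follicles, and Vpreb3 (0.76, SE 0.21) differed by 1.07 to 1.47 in letter A and by -0.05 to 0.29 in letter B. Fcer2a, the low-affinity IgE receptor, went the other way, with 0.15 in letter A and 0.47 in letter B. The defining markers Ms4a1 (-0.01, SE 0.14) and Cr2 (-0.18, SE 0.17) were near background, detected on 2 and 0 VSL#3 arrays. Cxcl13, the chemokine that draws B cells into follicles, lay at 8.46, 9.47, 8.79, 7.44 and 7.88 against 7.39, 7.98, 7.27, 7.70 and 7.61 (0.82, SE 0.27, adjusted p 0.677 in limma).

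**Figure D2:**
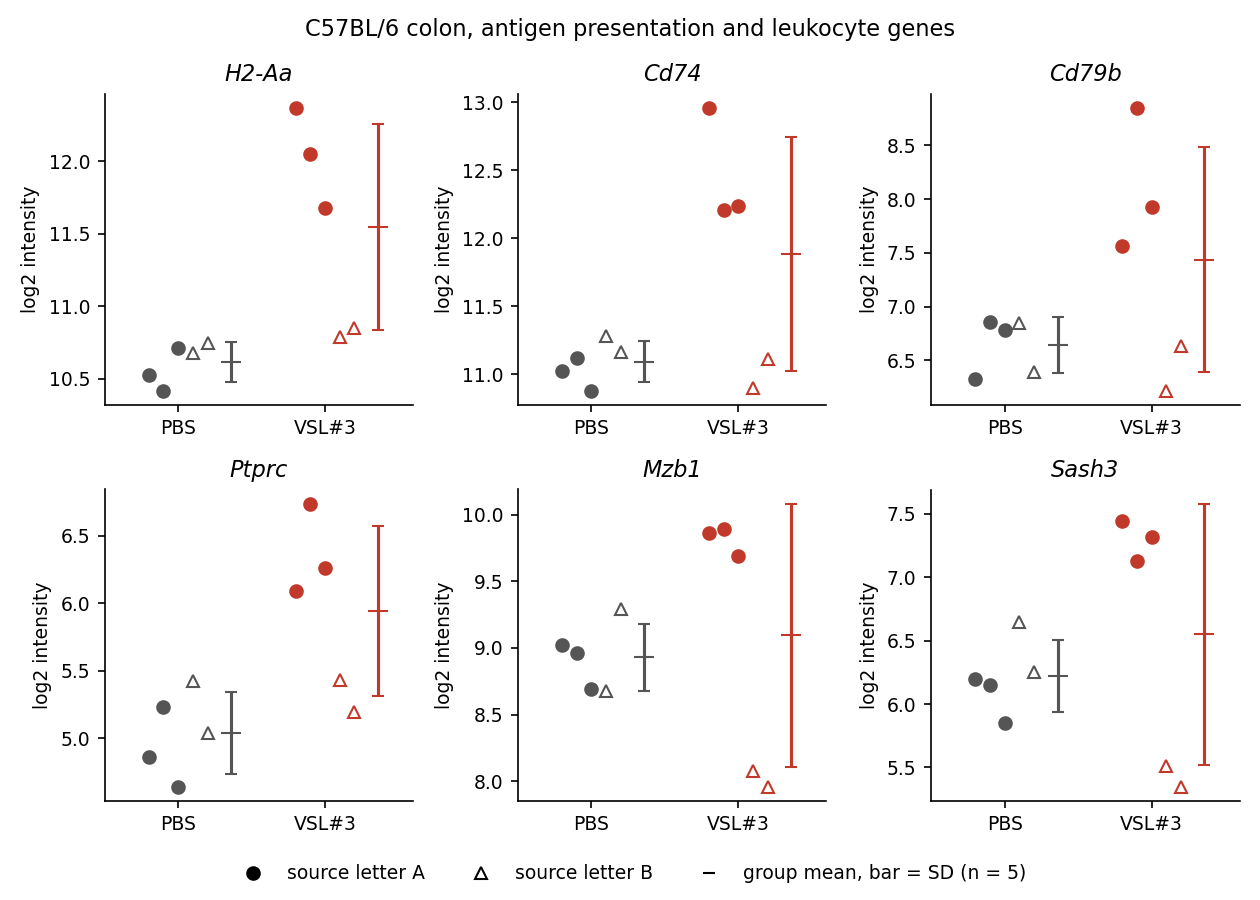
Log2 intensity (vertical axes, each panel on its own range) of 6 antigen presentation and leukocyte genes in the 5 PBS and 5 VSL#3 C57BL/6 colon arrays. Filled circles are letter A mice, open triangles letter B mice, and bars show the group mean and SD (n = 5). The 3 letter A mice given VSL#3 lie above every PBS mouse in all 6 panels, while the 2 letter B mice given VSL#3 lie within or below the PBS range, or narrowly above it for H2-Aa and, in 1 mouse, Ptprc.

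The VSL#3 mice split along the source letter, and the effect was fitted within each letter and compared between them, a comparison chosen after these values were seen. The calls below were made on the values that prompted it, so they describe these mice and are no independent support for the division. The fit had 8 group means by strain, treatment and letter over the 20 colon arrays. Within letter A, 3 mice against 3, 14 of 9833 genes passed in limma (0.142%), all higher with VSL#3. Within letter B, 2 mice against 2, 0 passed (0%), with 761 at an unadjusted p under 0.05 (7.74%), against 742 (7.55%) in letter A. The effects themselves differed between the letters for 3 genes (0.0305%), with 851 at an unadjusted p under 0.05 (8.65%). Letter A against letter B differed for 16 genes among the VSL#3 mice (0.163%, 828 or 8.42% unadjusted), all higher in A, and for 0 among the PBS mice (0%, 422 or 4.29% unadjusted).

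The 3 genes were Mzb1, Sash3 and Lat2. Mzb1, an endoplasmic reticulum co-chaperone of antibody-making B cells and plasma cells, lay at 9.86, 9.89, 9.69, 8.08 and 7.96 with VSL#3 and at 9.02, 8.96, 8.69, 8.68 and 9.29 with PBS. Letter A mice given VSL#3 were above all PBS mice and letter B mice given VSL#3 were below all of them. The effect was 0.92 in letter A and -0.97 in letter B, a difference of 1.89 (SE 0.24, adjusted p 0.00676 in limma).

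Sash3, a signalling adaptor of lymphocytes, showed the same order with 7.44, 7.13, 7.32, 5.51 and 5.35 against 6.20, 6.15, 5.85, 6.65 and 6.25. Its effect was 1.23 in letter A and -1.02 in letter B (difference 2.25, adjusted p 0.00818). Lat2, an adaptor of B cell and mast cell receptors, lay at 7.31, 7.66, 7.16, 5.90 and 6.36 against 6.69, 6.55, 6.35, 6.85 and 6.94 (difference 1.61, adjusted p 0.0484). For Sash3 and Lat2 the VSL#3 mice of letter A lay above all PBS mice and those of letter B below them, save that VSL#3 mouse 5 lay just above the lowest PBS mouse for Lat2.

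The 14 genes that rose in letter A included Mzb1 and Sash3. Ptprc, the pan-leukocyte phosphatase CD45, differed by 1.46 in letter A and by 0.08 in letter B. It lay at 6.09, 6.74, 6.26, 5.43 and 5.19 against 4.86, 5.23, 4.64, 5.42 and 5.04, and a second Ptprc probe differed by 0.21 over all 5 mice. Ccr6 (1.33 in A, -0.45 in B), a chemokine receptor of B cells and helper T cells, Klhl6 (1.49, -0.21), a B cell signalling protein, Cd52 (1.08, -0.22), a surface glycoprotein of lymphocytes, and Tbc1d10c (1.19, -0.13), which restrains lymphocyte activation, were among them. So were Cd3d (1.16, -0.53), a chain of the T cell receptor complex, Rasgrp1 (0.98, -0.65), which couples that receptor to Ras, Gimap7 (1.01, -0.61), a lymphocyte GTPase, Laptm5 (0.85, -0.44), a lysosomal protein of blood cells, and Il4i1 (1.07, -0.52), an amino acid oxidase of antigen-presenting cells. The others were Cd74 (1.46, -0.21), Acap1 (1.09, 0.04). Their adjusted p-values ran from 0.0440 to 0.0466 in limma.

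These calls lay close to the threshold. The count in letter A was 0 without VSL#3 mouse 2 or 3 or PBS mouse 1 or 3, 4 without VSL#3 mouse 1, and 0 when BALB/c arrays were left out of the fit. It was also 0 without a detection filter and 0 without further background correction, 7 under median scaling, and 23 with trend and robust moderation. For the difference between letters, 4 of 19 alternatives leave 1 letter B mouse in an arm, which is then assumed to vary like the other groups. Under the other 15, Sash3 passed in 15, Mzb1 in 14 and Lat2 in 8. The refits use the values that prompted the division, so these counts show dependence on processing and do not test the division. Among the 4, the count of 3 became 1 without PBS mouse 4 and 6 without VSL#3 mouse 5.

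Several immune lists divided by letter as well. T cell genes had a median of 0.65 in letter A, with 15 of 15 above 0, and of -0.33 in letter B, with 1 of 15 above 0. Only Cd3g, Thy1 and Ccl5 of these 15 were detected on all arrays of both groups. Cd6 was detected on 3 VSL#3 and 0 PBS arrays and Cd3d on 3 of each, so signal near background limits this list. The medians in letters A and B were 1.07 and -0.03 for the B cell surface genes, 1.35 and -0.06 for class II chains, 0.66 and 0.05 for peptide loading, and 0.46 and -0.28 for macrophage, dendritic cell and monocyte genes. Of the 16 tested genes of that last list, 15 lay above 0 in letter A and 4 in letter B. Its 3 members of lowest p over all 5 mice lay above 0 in both. They were Cx3cr1 (0.64 in A, 0.36 in B), Lyz2 (0.64, 0.35) and Clec7a (1.01, 0.24). Plasma cell genes had medians of 0.28 and -0.29, with 9 of 10 above 0 in letter A and 1 in letter B. The exception in both was the defining marker Sdc1, with -0.34 in letter A and 1.03 in letter B. Jchain, another defining marker, differed by 0.54 and -0.03. MHC class I presentation genes had medians of 0.57 and -0.56. Over all genes the medians were -0.01 and -0.01. Cytokine genes (0.14 and 0.21) and genes of the follicle-associated epithelium (0.10 and 0.12) did not show this order. Letter A minus letter B among PBS mice had a median of 0.04 for B cell surface genes, -0.17 for class II chains and -0.24 for T cell genes, against 1.02, 1.21 and 0.91 among VSL#3 mice. For class I presentation genes it was -0.32 among PBS mice, with 0 of 11 above 0, against 0.70 among VSL#3 mice.

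**Figure D3:**
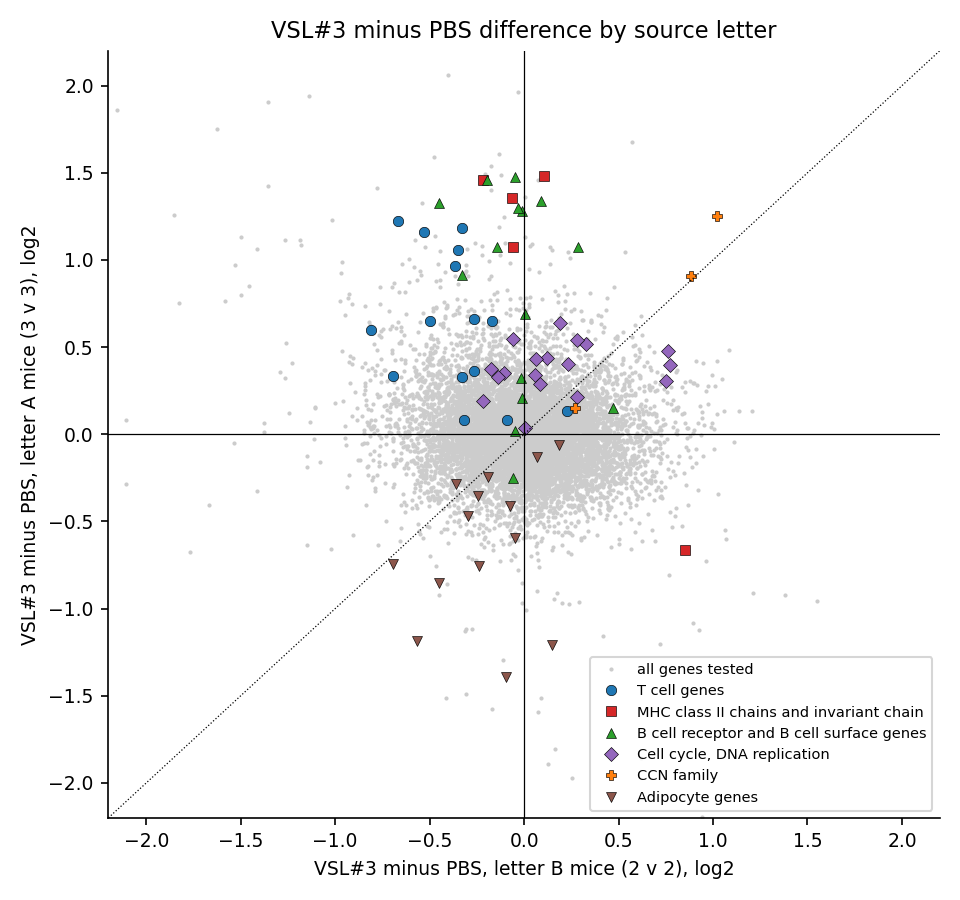
VSL#3 minus PBS difference (log2) within letter B (horizontal axis, 2 mice against 2) and within letter A (vertical axis, 3 mice against 3) for the genes tested, with 6 gene lists marked, 23 genes outside the axes and the dotted line marking equal differences. T cell, B cell and class II genes, save H2-Ea and 1 B cell gene, lie above 0 on the vertical axis and mostly near or below 0 on the horizontal one, while Ccn2 and Ccn1 lie near the dotted line.

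The 3 high mice were not alike among themselves. Mouse 1 led for the class II chains and for interferon response genes. H2-Ab1 stood at 11.87 there, against 11.05 and 10.92 in mice 2 and 3. The interferon-induced GTPase Gbp2 stood at 12.57, against 9.48 and 10.17. The peptide-loading gene H2-DMa stood at 10.38 in mouse 1, against 8.91 and 8.96. As a whole the peptide-loading list was highest in mouse 2, with a mean centred level of 0.78, against 0.62 in mouse 1 and 0.33 in mouse 3. Mouse 2 led for B cell and follicle genes, and the mean centred level of the 15 B cell surface genes was 1.02 there, against 0.17 and 0.57 in mice 1 and 3. Interferon response genes were also high in PBS mouse 4, where Gbp2 reached 12.13 while the other PBS mice lay between 9.21 and 9.79. Over 5 mice against 5 that list of 23 genes had a median of 0.03 with 14 above 0. Gbp2 differed by 0.31 (SE 0.55) and Ifi47, another induced GTPase, by 0.40 (SE 0.71), and without VSL#3 mouse 1 these were -0.26 and -0.16.

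**Figure D4:**
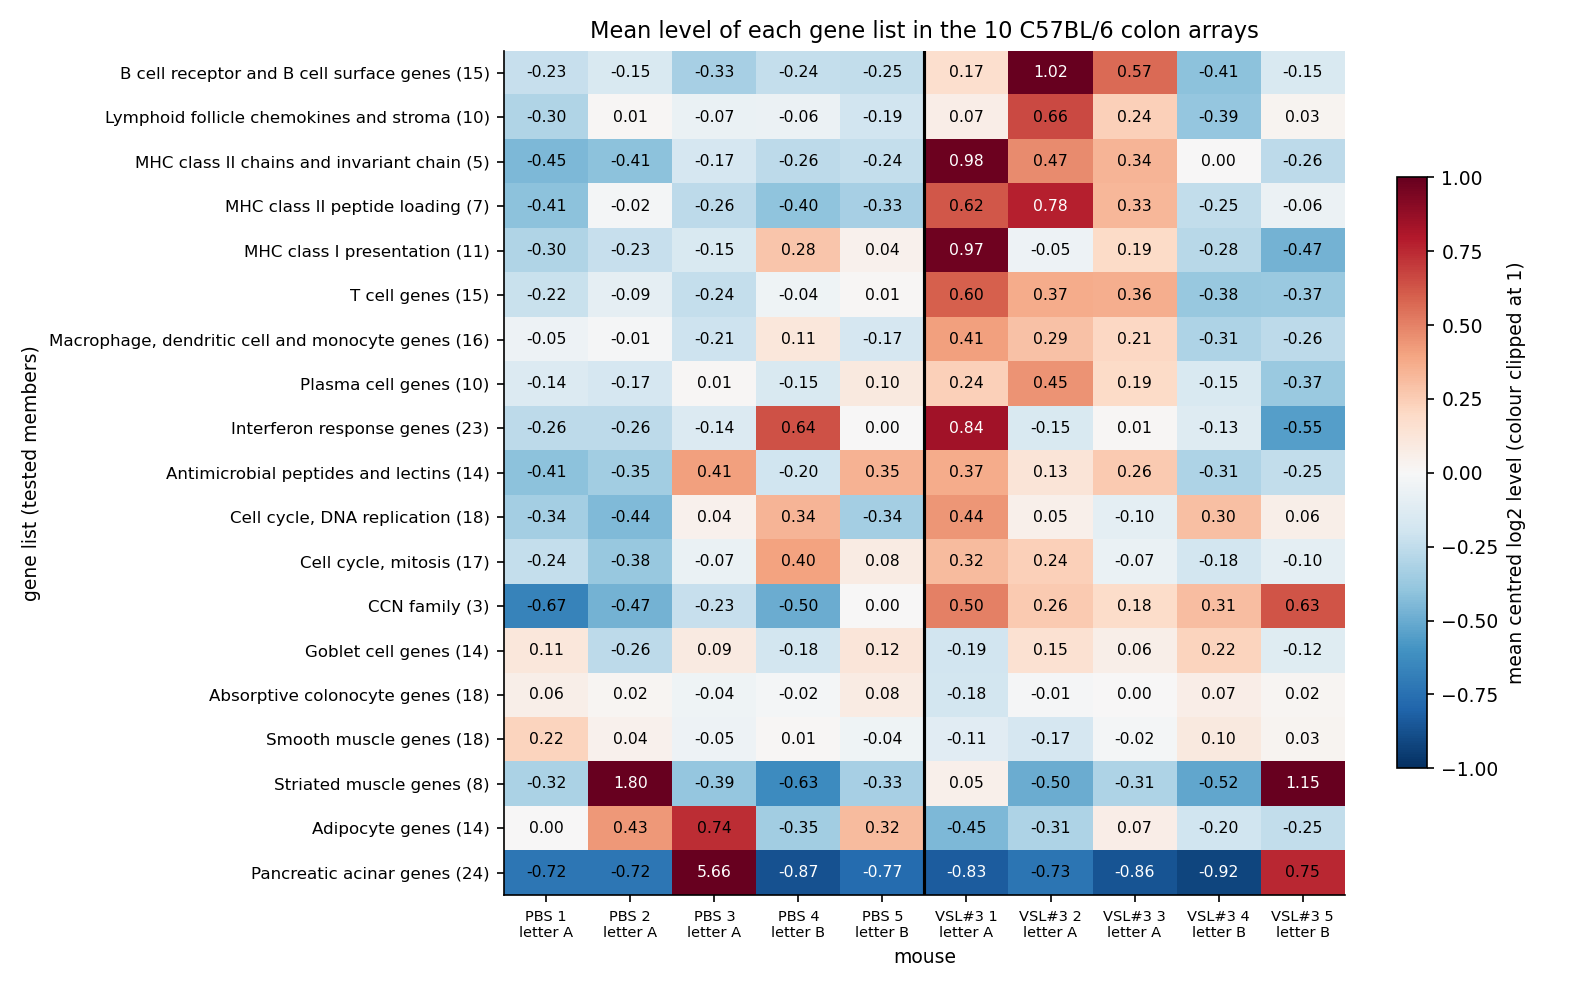
Mean level of 19 gene lists (rows, tested members in brackets) in each of the 10 C57BL/6 colon arrays (columns), each member centred on its mean over the 10 arrays, in log2 units with colours clipped at 1. The T cell, B cell surface and class II rows are red (above 0) in VSL#3 mice 1 to 3 and at or below 0 in mice 4 and 5, the CCN row is red in all 5 VSL#3 mice, and the pancreatic acinar row stands out in PBS mouse 3 at 5.66.

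All 18 tested DNA replication genes lay above 0, with a median of 0.29, 0.39 in letter A and 0.10 in letter B. Pcna, the sliding clamp of DNA polymerase, lay at 7.93, 8.38, 7.95, 8.51 and 8.11 against 7.63, 7.24, 7.95, 7.99 and 7.10 (0.59, SE 0.22, adjusted p 0.677 in limma). PBS mice 3 and 4 overlapped with VSL#3 mice 1 and 3. Rrm1, a subunit of ribonucleotide reductase, differed by 0.44 (SE 0.17), Mcm6 of the replicative helicase by 0.55 (SE 0.24) and Uhrf1, which maintains DNA methylation, by 0.46 (SE 0.23). Without VSL#3 mouse 1 the median was 0.18 and 14 of 18 were above 0. Mitosis genes had a median of 0.08, with 0.44 in letter A and -0.42 in letter B. Here the PBS mice also differed by letter. For mitosis genes letter A minus letter B had a median of -0.48 among PBS mice, with 0 of 17 above 0, and 0.31 among VSL#3 mice. For DNA replication genes it was -0.29 among PBS mice and -0.05 among VSL#3 mice.

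Adipocyte genes lay on the other side, 13 of 14 below 0 with a median of -0.39. Adipoq, the hormone adiponectin of fat cells, lay at 7.74, 8.06, 9.07, 7.39 and 8.20 against 8.64, 9.69, 10.10, 7.61 and 9.11 (-0.94, SE 0.38, adjusted p 0.712 in limma). PBS mouse 4 was as low as the VSL#3 mice, and PBS mice 2 and 3 were the highest. Lpl, lipoprotein lipase, differed by -0.55 (SE 0.21), Adig by -0.73 (SE 0.25), Aoc3 by -0.31 (SE 0.12) and the carbonic anhydrase Car3 by -0.87 (SE 0.45). Angptl4, an inhibitor of lipoprotein lipase, differed by -0.80 (SE 0.25) and lay between 5.10 and 5.57 in 4 VSL#3 mice, at 6.85 in VSL#3 mouse 3, and between 6.18 and 6.81 in PBS mice. The range of the adipocyte list's mean centred level was -0.45 to 0.07 with VSL#3 and -0.35 to 0.74 with PBS. Pancreatic acinar genes, from a tissue that also lies beside the gut, were at 5.66 in PBS mouse 3 and at 0.75 in VSL#3 mouse 5, against -0.92 to -0.72 in the other 8. All 24 of those genes lay below 0, with a median of -1.15, and without PBS mouse 3 the median was 0.32. Without both of these mice the adipocyte median was -0.36. They were left out for their acinar signal and not for their adipocyte level. PBS mice 1, 2, 4 and 5, at 0, 0.43, -0.35 and 0.32 for the adipocyte list, stayed in. The part of attached fat or pancreas in the adipocyte differences was not tested.

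Epithelial lists lay on both sides of 0, with no call. The median was -0.01 for 18 absorptive colonocyte genes, 0.10 for 14 goblet cell genes and 0.06 for 15 tight junction genes. It was -0.08 for enteroendocrine genes, with 4 of 14 above 0, and -0.12 for tuft cell genes, with 1 of 5 above 0. Xenobiotic metabolism genes had a median of -0.13 with 4 of 17 above 0, and Sprr, gasdermin and squamous genes had -0.30 with 3 of 7 above 0. Smooth muscle genes had a median of -0.09, with 5 of 18 above 0. Striated muscle genes were high in PBS mouse 2 (1.80) and VSL#3 mouse 5 (1.15), against at most 0.05 elsewhere.

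**Figure D5:**
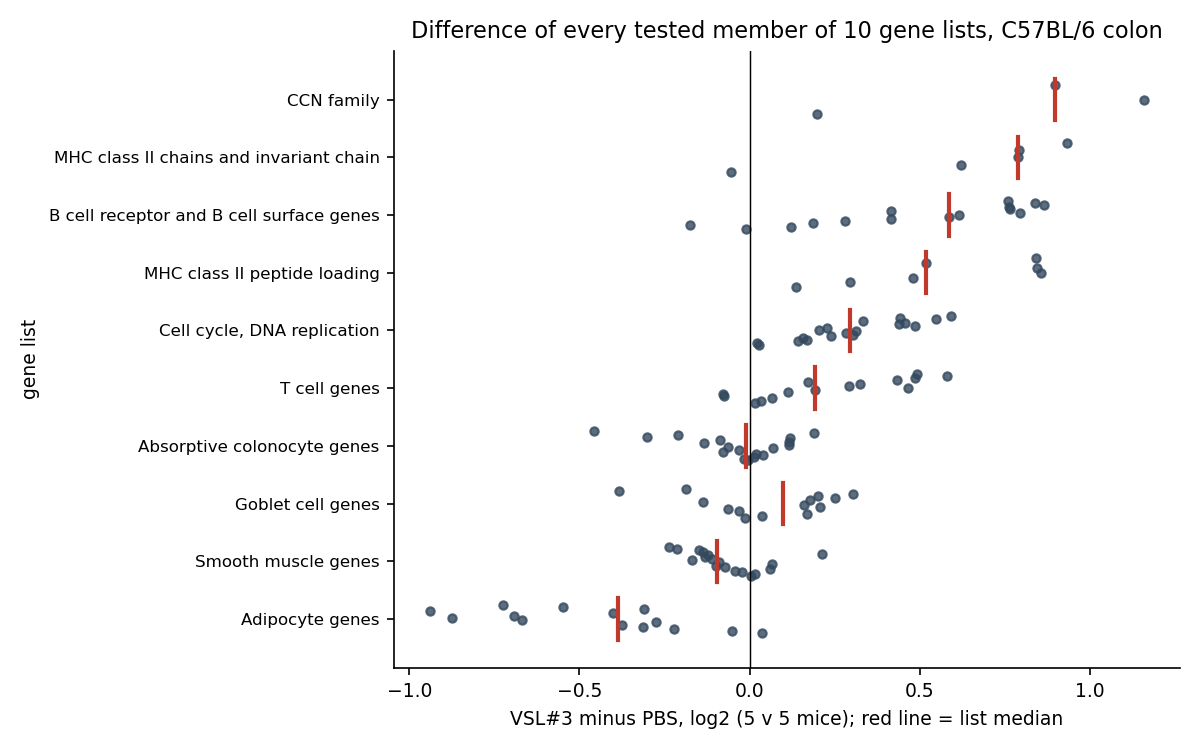
VSL#3 minus PBS difference (horizontal axis, log2, 5 mice against 5) of every tested member of 10 gene lists (rows), 1 point per gene, with the list median as a red line. All 18 DNA replication genes lie above 0 and 13 of 14 adipocyte genes below it, while colonocyte, goblet and smooth muscle genes lie on both sides.

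Antimicrobial proteins of the epithelium varied widely between mice. Reg3g, a lectin that kills Gram-positive bacteria, lay at 9.59, 8.13, 9.00, 8.51 and 7.78 with VSL#3 and at 6.66, 8.05, 6.11, 7.31 and 9.05 with PBS. PBS mouse 5 lay within the upper VSL#3 range, and the difference was 1.17 (SE 0.60, adjusted p 0.806 in limma). Reg3b, its close relative, lay at 11.93 in VSL#3 mouse 1 and 11.70 in PBS mouse 5 and differed by 0.60 (SE 0.83). Slpi, an inhibitor of leukocyte proteases, differed by 0.69 (SE 0.26), with 10.57, 9.53 and 10.32 in letter A mice and 8.87 and 9.13 in letter B mice given VSL#3, against 8.60 to 9.55 with PBS. Of the cytokines singled out for description, Il1b (0.00, SE 0.31) and Tgfb1 were tested, and Il10, Ifng, Tnf, Il17a and Il6 were not detected on enough arrays to be tested. Sprr2b, a small proline-rich protein of squamous and stressed epithelium, lay between 5.46 and 6.48 with VSL#3 and between 7.30 and 7.93 in 4 PBS mice, with PBS mouse 4 at 5.38. Its difference was -1.07 (SE 0.31, adjusted p 0.661 in limma), and without PBS mouse 4 it was -1.50 (adjusted p 0.000452 in limma). Leaving out the 1 PBS mouse that went against the difference widens it and narrows the spread. The smaller p is therefore no support for it.

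The difference between VSL#3 and PBS was then set against that in BALB/c colon and in the small intestine of the same C57BL/6 mice, by testing the difference of the effects. No gene passed either test. Against BALB/c colon 0 of 9833 genes passed in limma (0%, 448 or 4.56% unadjusted, lowest adjusted p 0.539), with Gpsm1 (-0.78, SE 0.16), Creb3l2, a transcription factor of the secretory pathway (-0.86, SE 0.18), and Tnfrsf19, a receptor of intestinal stem cells (0.81, SE 0.18), of lowest p. Against small intestine 0 of 9200 genes passed (0%, 390 or 4.24% unadjusted, lowest adjusted p 0.331), with Edn2, an endothelin (-0.79, SE 0.15), and Nfkbie, an inhibitor of NF-kB (0.81, SE 0.16), of lowest p. A test that misses the threshold does not show that the effects were alike.

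An unadjusted p under 0.05 for VSL#3 against PBS was reached by 3.43% of genes in BALB/c colon and by 4.22% in C57BL/6 small intestine. Ccn2 differed by 0.00 in BALB/c colon and by 0.25 in C57BL/6 small intestine, and the difference of effects from BALB/c was 0.90 (SE 0.24, adjusted p 1.00 in limma). H2-Aa differed by 0.17 in BALB/c colon and 0.16 in small intestine. The class II chains had a median of 0.05 in BALB/c colon and 0.04 in C57BL/6 small intestine, and the B cell surface genes 0.01 and 0.29. DNA replication genes had medians of 0.11 and 0.11, and adipocyte genes of -0.17 and -0.24. No member of these lists passed the test of the difference of effects from either.

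The letters were also set side by side in the small intestine of the same mice and in BALB/c colon, and the difference from C57BL/6 colon was not tested. In small intestine, letter A minus letter B among VSL#3 mice had a median of 0.02 for class II chains, -0.12 for T cell genes and 0.44 for B cell surface genes. In that tissue 0 of 9634 genes passed for the difference of effects between letters in limma (0%, 341 or 3.54% unadjusted). In BALB/c colon the class II chains also stood higher in letter A mice given VSL#3, with a median of 0.94, the T cell genes with 0.37 and the B cell surface genes with 0.23. So did class I presentation (0.60), interferon response (0.85) and mitosis genes (0.67), against 0.70, 0.47 and 0.31 in C57BL/6 colon. Peptide-loading (0.05), macrophage, dendritic cell and monocyte (0.19) and plasma cell genes (-0.11) differed less, against 0.88, 0.58 and 0.56. In BALB/c colon 6 genes differed between the letters among VSL#3 mice (0.061%). For the difference of effects 1 of 9833 genes passed in BALB/c colon (0.0102%, 506 or 5.15% unadjusted). Mzb1 differed between letters by -0.02 among BALB/c VSL#3 mice and Sash3 by 0.59, against 1.79 and 1.87 among C57BL/6 VSL#3 mice.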

How the data were processed

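Illumina MouseRef-8 arrays were hybridised with 750 ng of cRNA made from 500 ng of RNA, per the labels' protocols. The deposited table holds linear intensities with a detection value per probe, and 22.5% to 24.2% of the intensities on an array were below 0, so background had been subtracted. The detection cells hold 1 minus the p-value in the deposited table, judged from their values. A second table, of log2 values the authors had normalized by steps not given in the sources used here, was only checked and not used, because its 5 VSL#3 C57BL/6 colon columns matched the BALB/c VSL#3 colon arrays and the reverse.

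Intensities of all 40 arrays were background-corrected, quantile-normalized and log2-transformed with neqc of limma 3.58.1 in R 4.3.3 (offset 16). Probes detected at p under 0.05 on at least 5 arrays of a fit were kept, 1 probe per gene by highest mean. Of 25697 probes, 23978 carried 1 gene symbol and 1719 none. Group means of the 20 colon arrays were fitted and moderated with limma, with Benjamini-Hochberg adjustment over all genes and a threshold of 0.05. Named genes were the 20 of lowest p, the 10 of greatest difference in each direction among those without overlap, and members of the lists. Scripts were tested on simulated data. The members and lists were chosen with earlier results of these data known. Title numbers did not pair the mice (same-number correlations -0.33 to -0.01). Alternatives covered background, normalization, filter, probe choice, moderation, blocks and each array left out.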

Additional observations from a re-analysis of the deposited data

Results flagged for a closer look

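In groups of 5 mice, a value was singled out where its gap to the nearest other exceeded Dixon's critical share of the group's range, which chance gives in about 1 of 20 groups. This held for 9 of 92 list groups (9.78%) and 3 of 32 gene groups. Values are mean centred log2 levels for lists and log2 levels for genes.

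Pancreatic acinar genes stood at 5.66 in PBS mouse 3 (next -0.72) and at 0.75 in VSL#3 mouse 5 (next -0.73). Striated muscle genes stood at 1.80 in PBS mouse 2 (next -0.32). Interferon response genes stood at 0.64 in PBS mouse 4 (next 0), where Gbp2 was 12.13 (next 9.79) and Sprr2b was 5.38 (next 7.30). TGF-beta genes stood at -0.24 in PBS mouse 2 (next 0) and at 0.15 in VSL#3 mouse 3 (next 0.02), where Angptl4 was 6.85 (next 5.57). Fibroblast and matrix genes stood at 0.15 in VSL#3 mouse 5 (next -0.01), and fatty acid oxidation genes at -0.37 in VSL#3 mouse 1 (next -0.06). The strain and sex label genes stood at 0.70 in VSL#3 mouse 4 (next -0.03).

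The effect of VSL#3 in letter A exceeded that in letter B in limma for Sash3 by 2.25, for Mzb1 by 1.89 and for Lat2 by 1.61. This comparison was chosen after the values were seen, so these differences are no independent support for the division. Of the 15 alternatives that keep 2 letter B mice in each group, Sash3 passed in 15, Mzb1 in 14 and Lat2 in 8. The cause of the difference between letters was not tested.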

How the results depend on the processing

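No gene passed between VSL#3 and PBS in limma under 22 of 24 alternatives. With the title number as a replicate block, 1 gene passed, Ccn2 (0.90, adjusted p 0.0309), although the numbers did not pair the mice. Leaving out 1 array gave 0 to 1 genes, and 482 to 795 genes at an unadjusted p under 0.05. The 1 was Sprr2b without PBS mouse 4, the PBS mouse that went against its difference. Within letter A, chosen after seeing the data, 14 genes passed. Without a detection filter, 951 was the number of genes at an unadjusted p under 0.05, VSL#3 against PBS in C57BL/6 colon. The difference from small intestine gave 1 gene (Nfkbie, 3.96, adjusted p 0.000173) without further background correction. The difference between letters gave 11 genes without that correction, 9 under the stricter filter and 1 with only the compared arrays. The 14 genes of letter A became 0 without a detection filter, without that correction, or with only the compared arrays. The adjusted p of Ccn2 ran from 0.0309 to 0.995 over its alternatives.

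Of 2794 values of 117 named genes, 2774 kept their direction and 20 did not. Sizes moved more: 83 of the 117 genes had a value over 1.5 times above or below that reported under at least 1 alternative. This held for 47 genes with offset 50, 33 without further background correction and 9 as the mean of probes. Ptprc ran from 0.53 to 1.99 and Gpsm1 from -1.09 to -0.31. Ms4a1 was 0.037 with the source number as a block, Gimap7 -0.16 without further background correction, and Il1b -0.0061 under median scaling and -0.0075 with offset 50. With 1 array left out, Ms4a1 ran from -0.103 to 0.070, Il1b from -0.24 to 0.28, Mzb1 from -0.030 to 0.45, Ifi47 from -0.16 to 0.85 and Gbp2 from -0.26 to 0.85. The causes were not tested. Signal near background limits Ms4a1, Cr2, Gpr3 and Gpsm1, among others. Vpreb3 was detected on 1 PBS array, Cxcr5 on 2 PBS arrays and Cd3d on 3 arrays of each group.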
